A study of Homo sapiens with 11 samples.

Results

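The comparison set 3 arrays of T-REx-293 cells expressing shRNA B against Tat-SF1 beside 3 arrays of the same cells expressing an shRNA against GFP, 6 of the 11 arrays of the series. The arrays were chosen by their titles, and the 2 empty vector arrays and the 3 arrays of another Tat-SF1 shRNA, called shRNA A, were left out. T-REx-293 is a derivative of HEK293, a human embryonic kidney line, in which an introduced construct is switched on with tetracycline. Both groups stably carried a GFP plasmid, for the green fluorescent protein, and both received 2.5 µg/mL tetracycline for 72 h, so that, per the labels, they differed only in the shRNA that was induced. The control is thus an shRNA whose target, GFP, is present in these cells. Per the series design the replicates are biological triplicates. Total RNA was hybridised to exon arrays, which carry probe sets for most exons of each gene, and the question of the design was which transcripts and exons respond to a loss of Tat-SF1.

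Tat-SF1, encoded by HTATSF1, was found as a cellular cofactor of the HIV Tat protein and acts with factors of transcription elongation. It is also an RNA-binding protein that associates with the U2 snRNP, the spliceosome particle that recognises the branch point of the intron. A cell with less Tat-SF1 can therefore be examined both for the level of each transcript and for the use of its exons. On an exon array the first is read from all probe sets of a gene together, and the second from the splicing index, the log2 value of a probe set minus the log2 value of its gene on the same array.

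Of the probe sets on the array, 221140 with 1 gene symbol were used, and 14500 genes had values, from 12 probe sets in the median gene. A gene's value is the median over its probe sets on the log2 scale of the deposited table. The median of the whole table was 7.91, dim probe sets crowd around that level, and differences of genes close to it are therefore compressed. The 6 arrays correlated with each other at between 0.944 and 0.959. The 3000 brightest genes of an array averaged 9.18, 9.31 and 9.29 with shRNA B and 9.38, 9.30 and 9.34 with GFP shRNA (exact two-sided permutation p = 0.2, where 3 against 3 arrays allow no p below 0.1). GFP shRNA replicate 1 was the brightest and shRNA B replicate 1 the dimmest, and on the first principal component (42.8% of the variance of gene values) the former scored 11.6, the highest, and the latter -9.77, the lowest. They are called the outermost arrays here. The array file names of all 3 shRNA B arrays carry a suffix that no GFP shRNA array has, so that this suffix cannot be told apart from the effect of shRNA B. For the genes named by rule, values that moved by over 1.5 times without an outermost array are given with and without it.

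HTATSF1, the target, had gene values of 8.11, 8.19 and 8.21 with shRNA B and 8.53, 8.63 and 8.49 with GFP shRNA. All 3 shRNA B arrays lay below all 3 control arrays, by more than the spread within either group. The means were 8.17 ± 0.054 and 8.55 ± 0.071 (SD, n = 3 each), a log2 difference of -0.38 with a standard error of 0.065 and a 95% interval from -0.52 to -0.24. As signal above the median level of each array this was 49.0 ± 10.8 units with shRNA B against 136 ± 18.7 units with GFP shRNA (SD, n = 3), or 35.9% of the control if that level is taken as background. The unadjusted p was 8.64e-05, but after Benjamini-Hochberg adjustment over all genes limma gave an adjusted p of 0.173, and the exact permutation p was 0.1, the smallest that 3 against 3 arrays can give.

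The array has 17 HTATSF1 probe sets, of which 14 were used. Each of the 14 had a lower mean with shRNA B, and in 13 of the 14 the groups did not overlap. The largest probe set difference was -0.65, from values of 8.53, 8.77 and 8.61 with GFP shRNA to 7.90, 8.09 and 7.96 with shRNA B, which is close to the table median. The smallest was -0.07, in a probe set that lay near that median in both groups. The transcript was thus low along its measured length and not at single exons. With a higher floor on dim probe sets, the difference was -0.40 with an adjusted p of 0.00788 by limma. That floor changes both the genes that are adjusted over and the spread that limma estimates for each. Over all alternatives the adjusted p by limma lay between 0.00788 and 0.56.

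**Figure D1:**
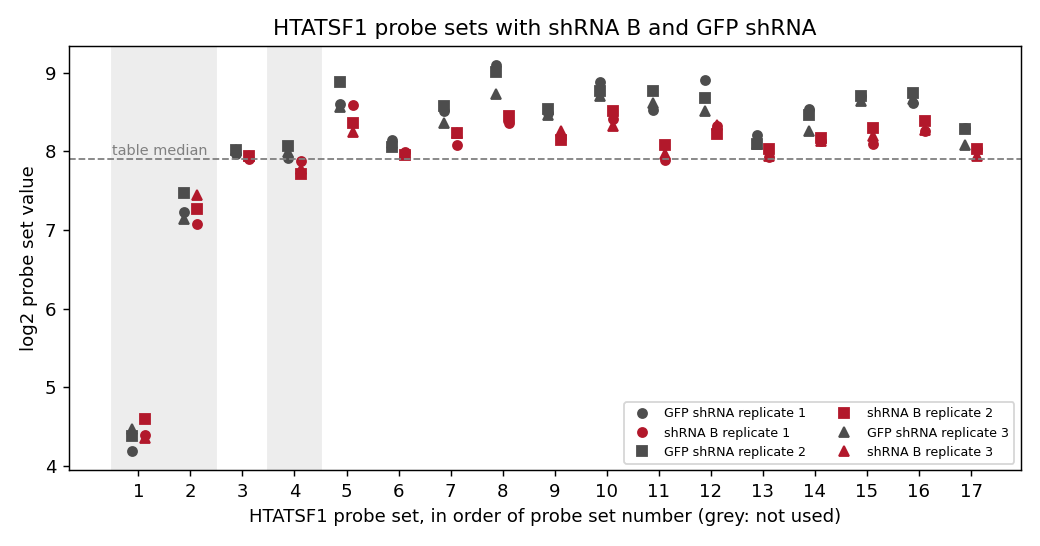
Log2 values of the 17 HTATSF1 probe sets (y axis) in order of probe set number (x axis), with red symbols for the 3 shRNA B arrays, dark symbols for the 3 GFP shRNA arrays and a grey background for the 3 probe sets that were not used. The dashed line is the table median of 7.91. Across the 14 probe sets used the red symbols lie below the dark ones, except for the overlap in 1 probe set, the fifth.

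Across all genes, the values were shifted toward lower levels with shRNA B, but no single gene passed the test. By limma 0 of 14500 genes had an adjusted p under 0.05 (0% called), and the smallest adjusted p was 0.125, for TMEM191A. Unadjusted, 1595 genes had a p under 0.05 (11%), 338 higher (2.33%) and 1257 lower (8.67%). The groups did not overlap in 2480 genes (17.1%), 467 higher (3.22%) and 2013 lower (13.9%). The mean was lower with shRNA B in 10211 genes (70.4%), with a median difference of -0.0272. Only 4 genes differed by 1.5-fold or more on this scale. Every value given below for a gene or probe set is therefore a measured difference that did not pass, and its direction is that of these 6 arrays.

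The size of the difference depended on the level of the gene. Among the 3520 genes with a mean below 8, near the table median, the median difference was 0.00134 and 46.4% were lower. Among the 2543 genes between 8.5 and 9 it was -0.0716 with 80.4% lower, and among the 278 genes between 10 and 11 it was -0.0883 with 77.0% lower. The median of the range that holds a gene list's median level is given beside each list below, as its level background. The share of genes at an unadjusted p under 0.05 by limma, in either direction, also differed by level. It was 8.01% below 8, 9.70% between 8.25 and 8.5 and 12.3% between 8.5 and 9. Between 9 and 9.5 it was 13.4%, and between 10 and 11 it was 16.2%. The shares of all genes given beside the lists are not matched for level, and shares without overlap were not computed by level. The shift differed by array: relative to each gene's GFP shRNA mean, the median over all genes was -0.0594, -0.0102 and -0.0190 on the shRNA B arrays and 0.0158, -0.0204 and -0.00116 on the GFP shRNA arrays, so that shRNA B replicate 2 lay above GFP shRNA replicate 2. Cyclic loess normalization moved the share of lower genes from 70.4% to 50.7% and the median to -0.000783.

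**Figure D2:**
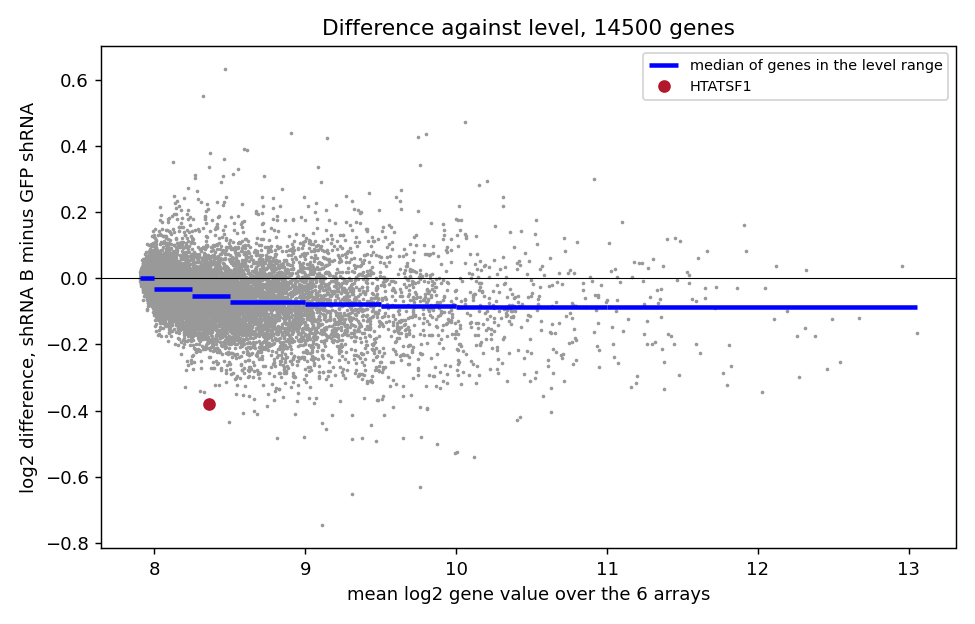
Log2 difference of each of 14500 genes, shRNA B minus GFP shRNA (y axis), against its mean log2 value over the 6 arrays (x axis); grey points are genes, blue lines the medians within level ranges and the red point HTATSF1. The blue lines step from 0.00134 below a level of 8 to -0.0883 between 10 and 11, and HTATSF1 lies at -0.38, well under the line of its range.

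The 12 lower genes named by rule included genes of the cytoskeleton, of metabolism and of translation. The rule took the largest differences at an unadjusted p under 0.01 by limma. It also required no overlap and a mean at least 0.3 above the table median, so genes outside it can differ by more. CRABP2, which carries retinoic acid to its nuclear receptor, had values of 8.82, 8.50 and 8.90 with shRNA B and 9.93, 9.38 and 9.16 with GFP shRNA. The groups did not overlap, though GFP shRNA replicate 1 stood well above the other controls, and the difference of -0.75 ± 0.17 (SE) was -0.53 without that array and -0.22 without the filter on dim probe sets. TMSB10, a protein that binds actin monomers, had 9.63, 9.82 and 10.09 against 10.55, 10.34 and 10.27. All 5 TMSB10 probe sets were lower with no overlap between groups, and the gene's difference was -0.54 ± 0.13 (SE), or -0.35 without both outermost arrays. RAC3, a small GTPase that acts on actin, had 9.43, 9.59 and 9.58 against 9.99, 10.06 and 9.97, the tightest control group among the 12 lower genes. Its difference was -0.48 ± 0.090 (SE; adjusted p = 0.173 by limma). PLXNB2, a semaphorin receptor, was at 9.15, 9.26 and 9.25 against 10.02, 9.68 and 9.44, a difference of -0.49 that was -0.30 without both outermost arrays.

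Metabolic genes among the 12 lower genes named by rule included SLC25A1, the mitochondrial citrate carrier, with 9.70, 9.61 and 9.87 against 10.56, 10.08 and 10.14. All 10 of its probe sets were lower, 8 of them with no overlap, and the gene's difference was -0.53 ± 0.13 (SE). GSTP1, a glutathione S-transferase, had 8.51, 8.60 and 8.61 against 9.16, 8.89 and 9.11, a difference of -0.48 ± 0.086 (SE). GPT2, a mitochondrial alanine aminotransferase, differed by -0.46 and DNPH1, a hydrolase of deoxynucleotides, by -0.49 (-0.31 without both outermost arrays). EEF1D, which recharges the elongation factor that brings tRNA to the ribosome, had 9.40, 9.20 and 9.61 against 9.96, 9.77 and 9.94, a difference of -0.48 ± 0.11 (SE). Without the filter on dim probe sets it was at -0.0072 with an adjusted p of 0.976 by limma. PTOV1 was at 9.18, 9.08 and 9.14 against 9.73, 9.53 and 9.60, a difference of -0.48 with no overlap. KCTD12, an auxiliary subunit of GABA-B receptors, completed the 12 with ATF4, described below, at -0.44. The adjusted p of these 12 genes lay between 0.173 and 0.292 by limma.

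A median over probe sets can jump between probe sets of different brightness, so the named genes were also computed after each probe set had been centred on its own mean over the arrays, an alternative chosen after seeing the data. CRABP2 was then at -0.60, TMSB10 and SLC25A1 at -0.41, PLXNB2 at -0.39 and DNPH1 at -0.37. The difference was smaller by more than 1.5 times for RAC3 (-0.26), EEF1D (-0.24), KCTD12 (-0.23), PTOV1 (-0.31), GSTP1 (-0.28) and ATF4 (-0.18). For HTATSF1 it was -0.29. All of these values kept their direction. Of 85 genes whose values were recomputed, 50 moved by over 1.5 times with probe sets centred first (49 of them to a smaller difference), 46 with means of probe sets (42 smaller), 40 with no filter on dim values (each to a smaller one) and 17 without GFP shRNA replicate 1 (15 smaller).

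The 12 higher genes named by the same rule had few used probe sets, between 4 and 9 each. Most of their probe sets on the array were not used. PTPN7 had 4 used of 25, RBBP8NL 6 of 27 and COMTD1 8 of 19. Genes outside the rule could be higher than several of them, such as INSM1 at 0.44. TMEM191A had values of 8.88, 8.71 and 8.75 with shRNA B and 8.33, 8.06 and 8.06 with GFP shRNA. Every shRNA B array lay above every control, and the difference of 0.63 ± 0.086 (SE) was the largest higher value of the 14500 genes. It had the smallest adjusted p by limma (0.125), and adjusted p values of 0.00822 with a replicate block and 0.00596 without GFP shRNA replicate 1. Without the filter on dim probe sets its difference was 0.041 with an adjusted p of 0.66. TMEM191A has near-identical copies, TMEM191B and TMEM191C, whose transcripts these probe sets may share. ZNF579, a zinc finger protein, had 8.98, 8.15 and 8.66 against 8.07, 8.10 and 7.96, so that its difference of 0.55 ± 0.15 (SE) rested on replicates 1 and 3 while replicate 2 lay just above the controls. It was 0.36 without shRNA B replicate 1 and 0.12 without the filter. DMRTA2, a transcription factor of the DM-domain family, had 10.57, 10.03 and 10.29 against 9.70, 9.87 and 9.90, a difference of 0.47 ± 0.13 (SE) that was 0.27 without both outermost arrays and 0.056 without the filter.

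The other higher values were smaller, and most of them moved with the summary of probe sets. IQSEC3, an exchange factor for ARF GTPases, differed by 0.42, COMTD1 by 0.39, ANKRD34A by 0.38 and PTPN7, a tyrosine phosphatase of blood cells, by 0.36. RBBP8NL was at 0.32, and MYO7B, a myosin of brush borders, the pseudogene TBC1D27P and SPAG4, a SUN-domain protein, were each at 0.31. ADRA2C, an adrenergic receptor, was at 0.29. After centring the probe sets first, PTPN7 was at 0.29, ZNF579 at 0.42 and TMEM191A at 0.35, while IQSEC3 was at 0.07, MYO7B at 0.08, SPAG4 at 0.09, COMTD1 at 0.11, ANKRD34A at 0.14, ADRA2C at 0.15, TBC1D27P at 0.16, RBBP8NL at 0.19 and DMRTA2 at 0.21. Without a filter on dim probe sets COMTD1 was at -0.10 and ADRA2C at -0.032, which turns their direction, and IQSEC3, ANKRD34A, PTPN7, RBBP8NL, MYO7B, TBC1D27P and SPAG4 lay between 0.011 and 0.054.

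**Figure D3:**
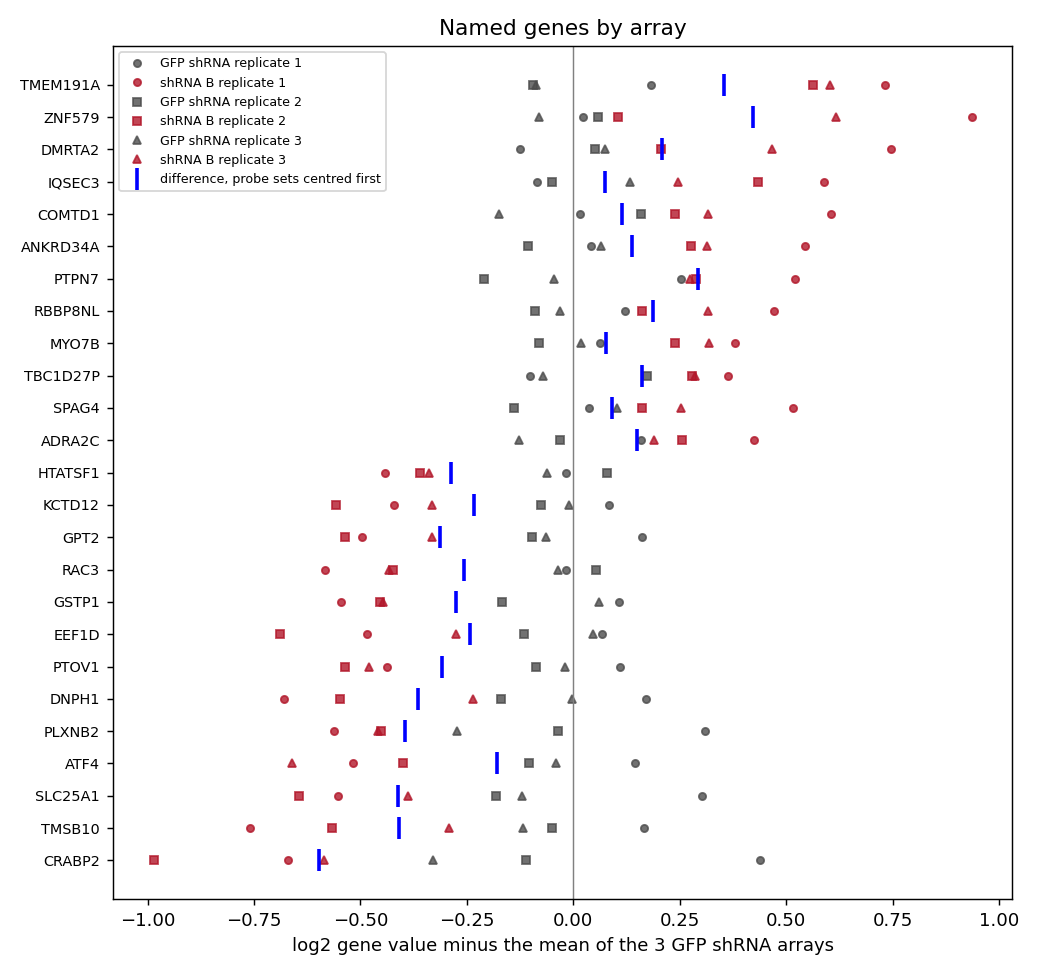
Log2 gene values minus the mean of the 3 GFP shRNA arrays (x axis) for HTATSF1 and the 24 named genes (y axis), with red symbols for shRNA B, dark symbols for GFP shRNA, a shape per replicate number and a blue bar for the difference after centring the probe sets first. Red and dark symbols do not overlap in any gene, and the blue bars of most higher genes lie closer to 0 than their red symbols, as for IQSEC3 at 0.07.

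ATF4 and the genes of the amino acid response formed the list with the most uniform direction. ATF4 is the transcription factor that is translated when amino acids are scarce or the secretory pathway is stressed, and its targets make, import and load amino acids. ATF4 itself had values of 9.75, 9.87 and 9.61 with shRNA B and 10.41, 10.16 and 10.23 with GFP shRNA, with no overlap. The difference was -0.53 ± 0.11 (SE; adjusted p = 0.205 by limma), and -0.18 ± 0.087 (SE) after centring the probe sets first. The symbol covers 23 used probe sets in 5 separate runs of probe set numbers; 19 of the 23 were lower, 5 with no overlap, and the median of each run was lower, between -0.085 and -0.25.

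Of the 34 genes on this list 29 were measured, all 29 lower and none past the test, with a median of -0.164 against -0.0272 for all genes and a level background of -0.0787 (range 9 to 9.5, median level of the list 9.00). Unadjusted, 11 had a p under 0.05 (37.9%, against 8.67% of all genes), all lower, and in 8 the groups did not overlap (27.6%, against 13.9%). Among genes of a level between 9 and 9.5, 13.4% had such a p in either direction. CEBPG, a partner of ATF4, had 9.58, 9.62 and 9.71 against 10.20, 9.86 and 9.83, a difference of -0.33 ± 0.11 (SE). The control values again had GFP shRNA replicate 1 on top; the difference was -0.21 without it, -0.18 without both outermost arrays and -0.15 without the filter on dim probe sets. ASNS, asparagine synthetase, had 9.33, 9.30 and 9.64 against 9.91, 9.70 and 9.60, where shRNA B replicate 3 lay above GFP shRNA replicate 3. PHGDH, the first enzyme of serine synthesis, differed by -0.31, the amino acid transporter SLC7A5 by -0.29, the folate enzyme MTHFD2 by -0.28 and PCK2 by -0.27, while SLC7A11, XPOT and PSPH were at -0.05, -0.03 and -0.01.

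Across arrays the list followed the brightness of the arrays in part. Relative to each gene's control mean, the list median was -0.275, -0.165 and -0.0670 on the shRNA B arrays and 0.142, -0.0890 and -0.0337 on the GFP shRNA arrays, so that replicate 3 of shRNA B overlapped GFP shRNA replicate 2. Without GFP shRNA replicate 1 the list median was -0.0750 beside -0.0143 for all genes, and without both outermost arrays it was -0.0563 beside -0.00447. It was -0.255 without shRNA B replicate 3. After quantile normalization 28 of 29 members were lower with a median of -0.152, and after cyclic loess 23 of 29 with a median of -0.0894. The part of array brightness in this result was not tested beyond these values.

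Some promoters of the list hold the core, TGATGNAA, of the sequence that ATF4 binds with C/EBP partners. The core was searched on both strands from 250 bases before to 50 after the RefSeq start of transcription (GRCh38.p14), and it was present in 7 of the 25 list members with a promoter (28%), namely CEBPG, ASNS, AARS1, NARS1, ATF3, SLC7A1 and SLC3A2. The core was present in 3.62% of all 35116 windows, and in 3.28% of measured genes with a window. As the list is of ATF4 and its response genes, its higher share is no result of these arrays. The windows of 3 members are shown because their genes are those with the largest differences among the 7 (-0.33 for CEBPG, -0.31 for ASNS and -0.18 for AARS1); each is read 5′ to 3′ on the gene's strand, and capitals mark the core or its reverse complement.
CEBPG, chr19:33374045-33374104, plus strand: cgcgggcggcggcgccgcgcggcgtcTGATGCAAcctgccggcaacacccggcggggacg
ASNS, chr7:97872443-97872502, minus strand: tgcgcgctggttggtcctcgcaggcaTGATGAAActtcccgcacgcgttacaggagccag
AARS1, chr16:70289660-70289719, minus strand: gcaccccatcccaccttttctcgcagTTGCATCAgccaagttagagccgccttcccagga
Among all measured genes with a window, the 382 that hold the core had a median difference of -0.0111, against -0.0292 for all 11662. A match describes these letters and not a bound site.

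The cytosolic ribosomal proteins were the largest list with a common direction. These proteins build the ribosome, and their transcripts are among the most abundant of a growing cell. Of 68 measured members 65 were lower and 3 higher, none past the test, with a median of -0.179, against -0.0883 for genes of a level between 10 and 11, the range that holds the median level of the list (10.4). Unadjusted, 21 had a p under 0.05 (30.9%, against 8.67% of all genes) and in 25 the groups did not overlap (36.8%, against 13.9%), all of them lower. Among genes of a level between 10 and 11, 16.2% had such a p in either direction. RPL30, a protein of the large subunit, had 10.04, 10.20 and 10.33 against 10.64, 10.57 and 10.65, and RPS14, of the small subunit, had 9.08, 9.20 and 9.03 against 9.50, 9.57 and 9.47. In both the 3 control arrays lay close together and above all shRNA B arrays, with differences of -0.43 ± 0.10 and -0.41 ± 0.083 (SE); after centring the probe sets first they were -0.33 and -0.23.

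RPL36 was at -0.41, RPSA at -0.36, RPL18 at -0.34 and RPS28 at -0.33, and the 3 higher members were RPL27A and RPS13 at 0.08 and RPS7 at 0.01. Relative to the control means, the median of the list was -0.266, -0.0928 and -0.166 on the shRNA B arrays and 0.0250, -0.0342 and -0.0105 on the GFP shRNA arrays. Here every shRNA B array lay below every control array. The list median was -0.145 without GFP shRNA replicate 1, -0.104 without both outermost arrays, -0.153 after quantile normalization, -0.136 after centring the probe sets first (68 of 68 lower) and -0.0878 after cyclic loess (53 of 68 lower). Ribosomal protein genes have many processed pseudogenes, which probe sets can read as well.

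Many transcripts of ribosomal proteins are known to begin with a C followed by a run of pyrimidines, a tract through which their translation is tuned. On the gene's strand, a C followed by 4 more pyrimidines stood at a RefSeq start (GRCh38.p14) of 43 of the 58 members with a window (74.1%), and at 4.07% of all 35116 starts. The start regions of 5 members among the 6 with the largest differences are shown, the first 4 with this feature and RPS28 without it; the 15 bases before the start are in lower case and the 15 from the start in capitals.
RPS14, chr5:150449725-150449754, minus strand: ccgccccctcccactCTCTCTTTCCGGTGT
RPL36, chr19:5690280-5690309, plus strand: ccgcgcggcgccagcCCTTCCGCCACGGCC
RPSA, chr3:39406705-39406734, plus strand: tttcctgccgcctgtCTTTTCCGTGCTACC
RPL18, chr19:48619164-48619193, minus strand: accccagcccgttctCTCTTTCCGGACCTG
RPS28, chr19:8321481-8321510, plus strand: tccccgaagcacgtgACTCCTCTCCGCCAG
The letters CTTTCC, searched on both strands from 10 bases before to 20 after the start, were in 17 of the 58 members with a window (29.3%). They were in 2.62% of all windows and in 3.76% of measured genes with a window. The 438 measured genes that hold them had a median difference of -0.0402, against -0.0292 for all measured genes with a window.

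Histone genes had the lowest list median, -0.196, against a level background of -0.0716 (range 8.5 to 9). Of 11 measured members 10 were lower, 7 at an unadjusted p under 0.05 (63.6%, against 8.67% of all genes) and 6 without overlap (54.5%, against 13.9%). Among genes of a level between 8.5 and 9, 12.3% had such a p in either direction. H1-2, a linker histone, had 9.50, 9.47 and 9.87 against 9.84, 10.12 and 10.06, so that shRNA B replicate 3 reached into the controls, and its difference was -0.39 ± 0.12 (SE). H1-10, a replication-independent linker histone, had 8.11, 8.19 and 8.08 against 8.39, 8.53 and 8.49, a difference of -0.34 ± 0.064 (SE; adjusted p = 0.173 by limma) with no overlap. After centring the probe sets first H1-2 was at -0.24 and H1-10 at -0.21. H2AX, the variant that marks broken DNA, was at -0.32, H3-3A at -0.31 and H1-4 at -0.27, and H2AZ2 was the higher one at 0.07. On the arrays the list median was -0.294, -0.269 and -0.180 with shRNA B and -0.0287, 0.00578 and 0.0229 with GFP shRNA, which do not overlap. With single arrays left out the list median lay between -0.182, without GFP shRNA replicate 1, and -0.290, without shRNA B replicate 3. It was -0.128 after cyclic loess and -0.136 after centring the probe sets first (11 of 11 lower). Only 11 of its 24 genes were measured.

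Oxidative phosphorylation genes, which encode the respiratory chain and ATP synthase, were lower in 41 of 44 measured members, with a median of -0.106, against a level background of -0.0787 (range 9 to 9.5). At an unadjusted p under 0.05 were 12 members (27.3%, against 8.67% of all genes), all lower. Among genes of a level between 9 and 9.5, 13.4% had such a p in either direction. SDHA, the flavoprotein of succinate dehydrogenase, had 9.50, 9.51 and 9.68 against 9.88, 9.93 and 10.05. Every shRNA B array lay below every control, and the difference was -0.39 ± 0.094 (SE), or -0.16 after centring the probe sets first, where 8 of 13 probe sets were lower. NDUFS7, of complex I, was at -0.34 with overlapping groups, at -0.21 without GFP shRNA replicate 1, at -0.19 without shRNA B replicate 2 and at -0.0012 without the filter on dim probe sets. ATP5ME was at -0.33, CYC1 at -0.32 and SDHB at -0.30. The list median lay between -0.0811 and -0.143 with single arrays left out and was -0.0369 after cyclic loess, where 27 of 44 members were lower.

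Genes of DNA replication were lower in 42 of 44 measured members with a median of -0.100, against a level background of -0.0716. Of these, 4 had an unadjusted p under 0.05 (9.09%), close to the 8.67% of all genes. Among genes of a level between 8.5 and 9, 12.3% had such a p in either direction. The median was -0.0586 without shRNA B replicate 1 and -0.0224 after cyclic loess. MCM3, a subunit of the replicative helicase, was at -0.23 ± 0.080 (SE) with no overlap, or -0.12 after centring the probe sets first, and CDT1, which loads that helicase, was at -0.41 ± 0.15 (SE) with overlap and at -0.23 without GFP shRNA replicate 1. Mitosis genes were lower in 29 of 35 with a median of -0.0681, near the level background of -0.0716. AURKB, a mitotic kinase, had 10.21, 10.04 and 10.39 against 10.82, 10.54 and 10.54, with no overlap and a difference of -0.42 ± 0.12 (SE), or -0.25 after centring the probe sets first. KIF2C, a kinesin of the centromere, was at -0.23, and at -0.095 without the filter. The mitosis median turned to 0.0135 without both outermost arrays and was -0.00592 after cyclic loess. Targets of p53 were lower in 20 of 26 (median -0.0734, level background -0.0530). At an unadjusted p under 0.05 were 7 of the lower ones (26.9%, against 9.70% in either direction of genes between 8.25 and 8.5). Among these 20 were BTG2 at -0.32 ± 0.071 (SE) with no overlap, or -0.11 after centring the probe sets first, and PMAIP1 at -0.33 with overlap and -0.14 without GFP shRNA replicate 1, while GADD45B was higher at 0.25.

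Of the lists nearest to the known partners of Tat-SF1, the U2 list had a median above its level background and the other spliceosome subunits a median below theirs. Of 21 measured genes of the U2 snRNP and its SF3 complexes 17 were lower, with a median of -0.0393 (level background -0.0787), none at an unadjusted p under 0.05 and 1 without overlap (4.76%, against 13.9% of all genes). SF3A2 was at -0.23 ± 0.11 (SE) and SNRPA1, a protein of the U2 particle, at -0.18 ± 0.11 (SE), both with overlapping groups; without GFP shRNA replicate 1 they were at -0.15 and -0.048. SF3B1, which clamps the branch point, was at -0.01 and SF3A1 at 0.09. DDX46, a helicase of U2 assembly, was the gene without overlap, at -0.10. Of 36 other spliceosome subunits 31 were lower (median -0.0869, level background -0.0716), 5 of them at an unadjusted p under 0.05 (13.9%, against 8.67% of all genes) and 10 without overlap (27.8%, against 13.9%). The share with such a p is close to the 12.3%, in either direction, of genes between 8.5 and 9. Among the lower subunits were SNRPA, a protein of the U1 particle, at -0.30 ± 0.086 (SE) and LSM4 at -0.30 ± 0.11 (SE), both without overlap. SR proteins and hnRNPs, which steer splice site choice, were lower in 23 of 34 (median -0.0509, level background -0.0787). HNRNPA3 was at -0.29 ± 0.11 (SE) and SRSF2 was higher at 0.23 ± 0.11 (SE), but after centring the probe sets first they were at -0.092 and 0.023, and SRSF2 was at 0.12 without shRNA B replicate 2. After cyclic loess the medians of the U2 and of the SR and hnRNP lists were 0.0338 and 0.0246, so their direction depends on the normalization.

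Genes of transcription elongation were lower in 30 of 36, with a median of -0.0547, against a level background of -0.0716. At an unadjusted p under 0.05, 5 were lower (13.9%, against 8.67% of all genes) and 1 higher, and 12 were lower without overlap (33.3%, against 13.9%). Among genes of a level between 8.5 and 9, 12.3% had such a p in either direction. TCEA2, an elongation factor of the TFIIS family, was at -0.29 ± 0.10 (SE), at -0.16 without GFP shRNA replicate 1 and at -0.073 with the higher floor on dim probe sets. ELOC, of the elongin complex, was at -0.24 ± 0.090 (SE), but at -0.0061 after centring the probe sets first, -0.028 with means of probe sets and -0.038 with the higher floor. ELOB was at -0.22, NELFB, a subunit of the negative elongation factor, at -0.18, and SUPT5H, a factor of the elongating polymerase, at -0.12. HEXIM1, the inhibitor of the elongation kinase P-TEFb, was the higher gene at 0.23, while the kinase CDK9 was at -0.10 and its cyclin CCNT1 at -0.01. None of the 36 passed by limma.

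The medians of the remaining lists lay between 0.0120 below and 0.0451 above their level background. Translation factors were lower in 28 of 38 (median -0.0920; EIF3H at -0.28, but 0.050 without the filter), cholesterol and fatty acid synthesis in 18 of 25 (-0.0837; INSIG1, which holds SREBP in the endoplasmic reticulum, at -0.29), glycolysis and hypoxia genes in 23 of 29 (-0.0822; NDRG1 at -0.37, but -0.06 without GFP shRNA replicate 1 and -0.56 without GFP shRNA replicate 3) and chaperones in 23 of 33 (-0.0644; the ubiquitin ligase STUB1 at -0.39). Actin genes were lower in 23 of 37 (-0.0643), RNA decay genes in 24 of 32 (-0.0609; EXOSC10 at -0.22, or -0.14 after centring the probe sets first) and immediate early and MAPK genes in 14 of 20 (-0.0591; CCND1, a D-type cyclin, at -0.29). The unfolded protein response was lower in 17 of 22 (-0.0459), the proteasome in 22 of 32 (-0.0344; PSMD7 at -0.23, or -0.13 after centring the probe sets first) and small RNA processing in 13 of 19 (-0.0265). In the interferon and double-stranded RNA response 10 of 24 genes were lower, with a median of 0.00270. After cyclic loess the medians turned for the proteasome (0.0454), small RNA processing (0.0398), chaperones (0.0274), the unfolded protein response (0.0221), actin genes (0.0216) and RNA decay (0.00768). Without both outermost arrays the actin median was 0.00558, and without shRNA B replicate 1 those of the proteasome and of chaperones were 0.00902 and 0.00455.

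The LSD1-CoREST list, 13 of 15 lower with a median of -0.0444, held a gene that stood out from it. HMG20B, a subunit of this histone demethylase complex, had 8.22, 8.21 and 8.39 against 8.73, 8.74 and 8.66. No shRNA B array came near the controls, and the difference was -0.44 ± 0.071 (SE; adjusted p = 0.173 by limma), with KDM1A, the demethylase itself, at -0.23 and at -0.11 without shRNA B replicate 1. The list median was 0.00181 after cyclic loess. After centring the probe sets first HMG20B was at -0.16 ± 0.055 (SE), with 10 of its 12 probe sets lower and 5 of them without overlap.

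Markers of the line and of other cell types were read for their level, since differences between the groups cannot check the label. The 9 measured HEK293 markers had a median level of 9.02. Of 9 measured HEK293 markers 8 were lower, with a median of -0.0780, KRT8 at -0.33 and NEFL at -0.13; without GFP shRNA replicate 1 NEFL was at 0.11, and without both outermost arrays the median was 0.00298. Fibroblast, endothelial, blood and hepatocyte markers had median levels between 7.92 and 7.95, close to the table median, with list medians between -0.000246 and 0.00887. The 7 measured epithelial carcinoma markers had a median level of 8.00. Among them EPCAM was at -0.21 and KRT17 at 0.17, or -0.12 and 0.049 after centring the probe sets first. Both lay above the table median, with means of 8.645 with shRNA B and 8.853 with GFP shRNA for EPCAM, and 8.681 and 8.507 for KRT17.

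**Figure D4:**
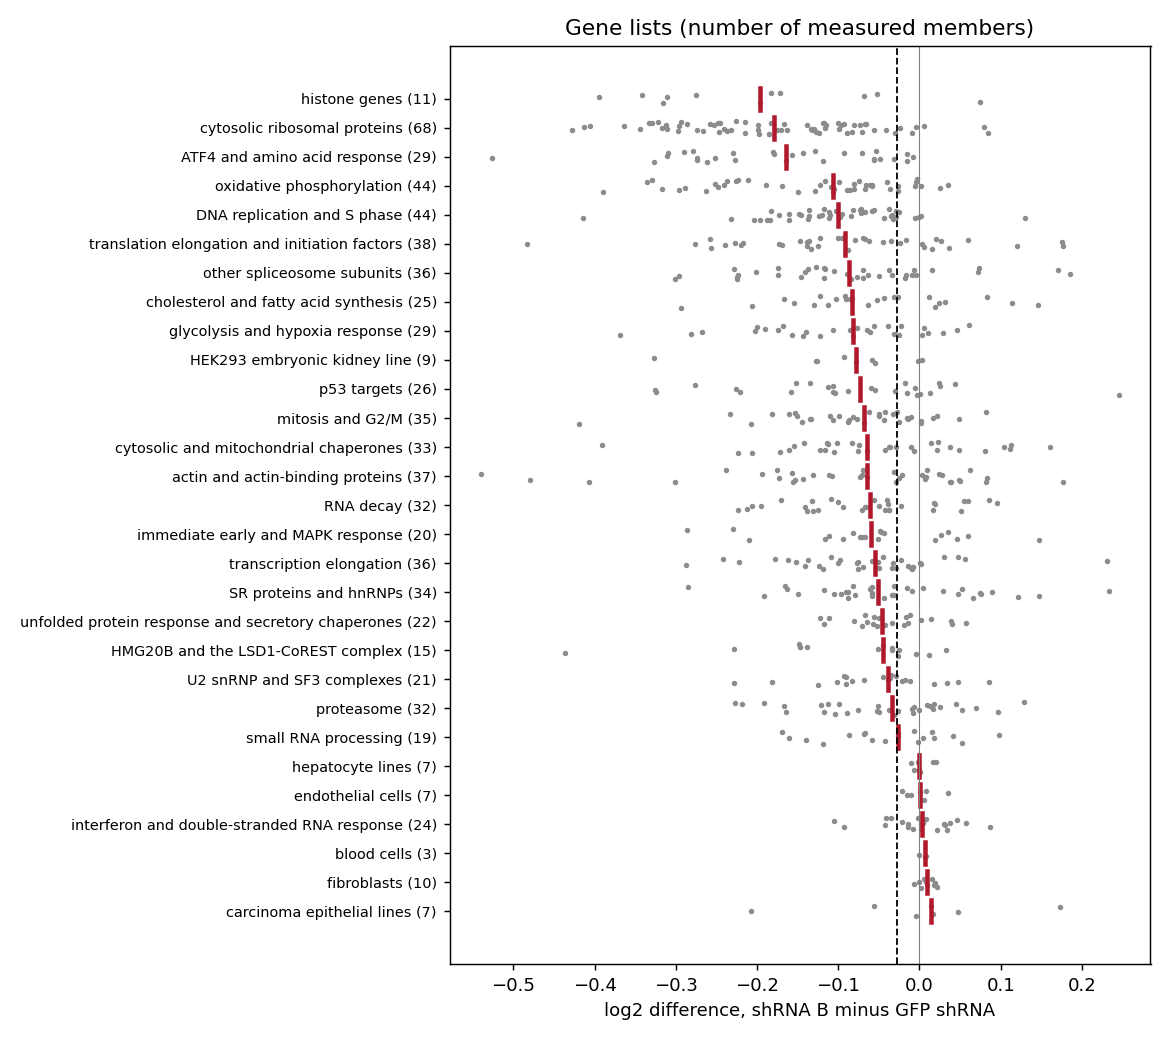
Log2 differences, shRNA B minus GFP shRNA (x axis), of the measured members of 29 gene lists (y axis, number measured in brackets); grey points are genes, red bars list medians and the dashed line the median of all genes, -0.0272. Histone genes (-0.196), ribosomal proteins (-0.179) and the amino acid response (-0.164) have the lowest medians, and the list medians of the other cell types' markers lie near 0.

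For exon usage, no probe set passed. By limma 0 of 221140 splicing indices had an adjusted p under 0.05 (0% called), with the smallest at 0.427. Unadjusted, 19060 had a p under 0.05 (8.62%), and in 29322 the groups did not overlap (13.3%), 16065 higher and 13257 lower with shRNA B. Large differences without overlap were few and mostly higher. Of the 221140, 24 were higher and 2 lower at an index difference of 1 or more, and 341 higher and 60 lower at 0.5 or more. A lower gene value raises the index, and 70.4% of genes were lower with shRNA B. The part of that in these counts was not tested. For the higher probe sets named below, gene values differed by between -0.41 (ACOT7) and 0.023 (REXO1, the only higher one). The probe sets themselves differed by between 0.60 (ACOT7) and 1.64 (ABL2). The index is a difference within a gene, and it does not show which part of the gene moved.

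The higher probe sets named by rule came from genes of diverse roles. ABL2, a tyrosine kinase, had index values of 1.79, 1.21 and 1.13 with shRNA B and 0.25, 0 and -1.26 with GFP shRNA at its last probe set number. The difference was 1.72 ± 0.40 (SE), but GFP shRNA replicate 3 lay far below the other controls, and the neighbouring probe set differed by 0.25. HOMER2, a scaffold protein of synapses, had 2.08, 1.89 and 3.04 against 1.25, 1.30 and 0.88, with shRNA B replicate 3 far above the rest. The difference was 1.19, and its neighbours on both sides lay between -0.16 and 0.22. FZD8, a Wnt receptor whose gene is known as a single exon, differed by 1.15, ACADVL, an enzyme of fatty acid oxidation, by 1.14, HSF2BP, a protein of meiosis, by 1.06 and GLRX5, of iron-sulfur cluster assembly, by 1.02.

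Narrower groups were seen for ACOT7 and THOC6. ACOT7, an acyl-CoA thioesterase, had index values of 1.83, 1.56 and 1.25 against 0.60, 0.60 and 0.40, a difference of 1.01 ± 0.15 (SE), of which 0.60 came from the probe set itself and the rest from a gene value lower by 0.41. THOC6, a subunit of the THO complex of mRNA export, had 1.79, 2.08 and 1.93 against 1.18, 0.99 and 0.85 at its first probe set number, a difference of 0.93 ± 0.12 (SE). In both, every shRNA B array lay above every control by more than the spread within a group. The next probe set of THOC6 differed by 0.23 and that of ACOT7 by 0.50. ABCA2, a lipid transporter, and REXO1, an exonuclease, differed by 0.93 and 0.91 at inner probe sets whose used neighbours lay between -0.13 and 0.02.

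The lower probe sets named by rule had smaller differences than the higher ones, with standard errors between 0.040 (TMEM50A) and 0.18 (STK24). TMEM50A had index values of -0.64, -0.68 and -0.61 with shRNA B and 0.03, -0.04 and -0.04 with GFP shRNA at its second probe set number. Each group spread over less than 0.08, the gene value itself differed by only -0.02, and the difference of -0.63 ± 0.040 (SE) had the smallest p of all probe sets, 1.98e-06 unadjusted and 0.427 adjusted by limma. The probe sets before and after it differed by 0.01 and -0.07. TAF1, the largest subunit of the transcription factor TFIID, had 0.40, 0.37 and 0.13 against 0.84, 0.94 and 1.00 at its second probe set number, a difference of -0.62 ± 0.086 (SE). The nearest used probe sets on either side were at 0.03 and -0.06, close to 0 on both sides.

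DDX46, the helicase of U2 assembly, had index values of -0.35, -0.35 and -0.15 against 0.15, 0.51 and 0.43 near the start of its probe set numbers, a difference of -0.64 ± 0.11 (SE), with the next ones at -0.31 and -0.26. H2AZ2, a histone variant, had -0.83, -0.86 and -0.56 against 0, -0.14 and -0.11, a difference of -0.67 ± 0.087 (SE), and its lower neighbours were at -0.34 and -0.33. STK24, a kinase of the Ste20 family, differed by -0.73 and EIF3F, a subunit of a translation initiation factor, by -0.71, with neighbours between -0.10 and 0.17. In both, 1 shRNA B array lay below the table median. The STK24 probe set was at 7.44 on replicate 1 and the EIF3F probe set at 7.47 on replicate 2. COL18A1, a basement membrane collagen, was at -0.61 and KRTCAP2, of the oligosaccharyltransferase, at -0.58. For INSM1, a neuroendocrine transcription factor whose gene is known as a single exon, and PAOX, a polyamine oxidase, the differences of -0.73 and -0.62 came with gene values that were higher by 0.44 and 0.34, while the probe sets themselves differed by only -0.29 and -0.28. The INSM1 gene value was -0.091 after centring the probe sets first.

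**Figure D5:**
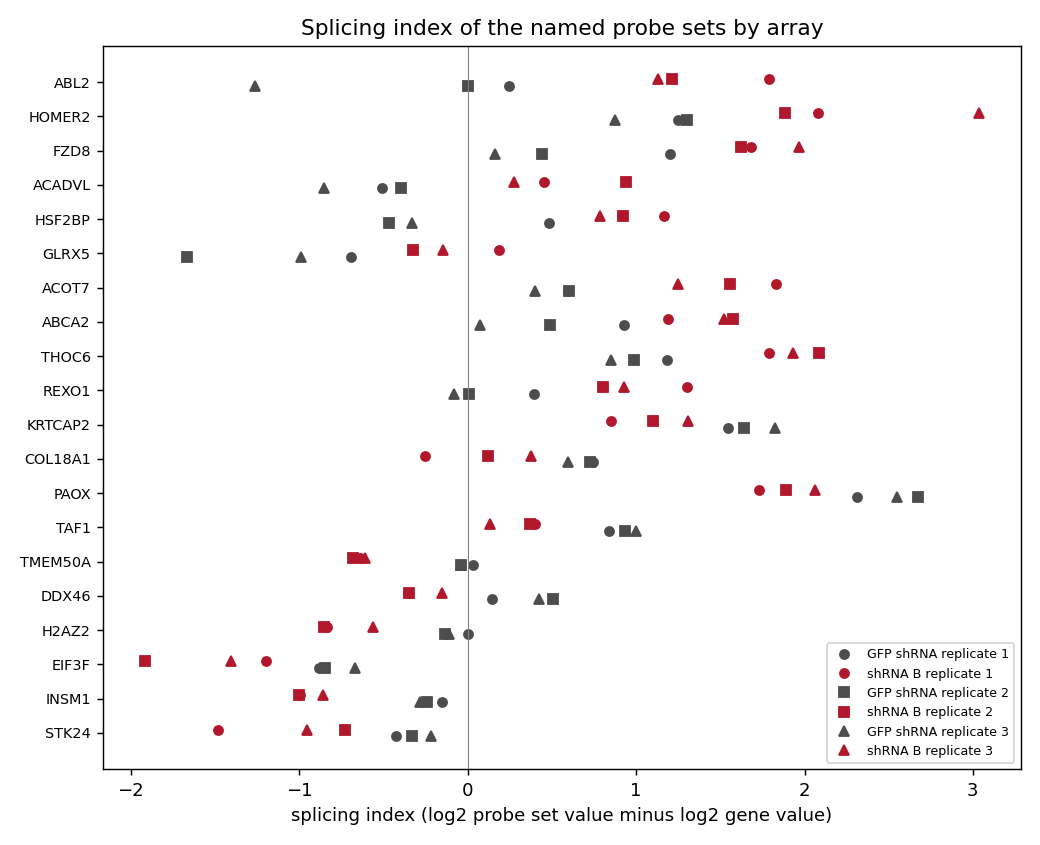
Splicing index (log2 probe set value minus log2 gene value, x axis) of the 20 named probe sets, 1 per gene (y axis), with red symbols for shRNA B, dark symbols for GFP shRNA and a shape per replicate number. The groups do not overlap in any of the 20, as the rule for naming required, and the controls of ABL2 spread from -1.26 to 0.25 while those of TMEM50A lie between -0.04 and 0.03.

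Some named probe sets lay at the ends of their genes. Of the 20, 8 were among the first or last 2 probe set numbers of the gene and 10 within the first or last 3. Among the 8 was that of GLRX5, a gene with only 6 probe sets, which the next comparison leaves out. In genes with at least 10 used or unused probe sets, an index difference of 0.5 or more without overlap was found for 136 of 30166 probe sets at the ends (0.451%) and for 239 of 181977 inside (0.131%). The share without overlap at any size was 12.8% at the ends and 13.3% inside. Probe sets at the ends were dimmer, with a median level of 8.13 against 8.30, and the part of that in the larger differences was not tested.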

How the data were processed

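The authors deposited log2 values of 1399022 exon probe sets per array; per the labels the arrays are Affymetrix human exon arrays, and the normalization, background correction, software and build are stated nowhere in the sources used here. Probe sets were named through a table of gene symbols of this array, in which 355799 had 1 symbol, 15195 several, and 1028028 are not in it. RefSeq synonyms (GRCh38.p14) served to update symbols, with 16450 of 19536 current, 2965 updated and 121 kept. A probe set was used if it had 1 symbol, an estimate on all 6 arrays and a mean at or above the table median of 7.91, and a gene needed at least 4 of them. Depth has no meaning for arrays; their number limits the precision.

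Differences were tested with limma 3.58.1 (R 4.3.3, version 1.17.8 of data.table; lmFit, eBayes with a trend) on 3 against 3 arrays, with Benjamini-Hochberg adjustment over all genes or probe sets and a threshold of 0.05. The members and lists were chosen with earlier results of these data known. HTATSF1 was named first, then the 12 largest differences in each direction among genes that passed or, as none did, at an unadjusted p under 0.01 with no overlap and a mean at least 0.3 above the table median; probe sets likewise, 10 in each direction, 1 per gene; and the 2 largest members of each list. Further members, INSM1 and PAOX gene values were chosen after their values were seen. The filter, summary, normalization, trend, spread, replicate block and single arrays were varied. On simulated data with 200 changed genes of 14500, the test recovered 48% for a log2 change of 0.25, 89% for 0.5 and 98.5% for 1. Of 200 changed splicing indices among 221140, it recovered 27.5% at 0.5 and 82.5% at 1. The simulated noise was independent between genes, with no shift shared by an array. Changes were added in full to genes of any level, dim ones included. These shares are therefore not the power for real changes on these arrays. The empty vector and shRNA A arrays were used only for 1 alternative, the spread from 11 arrays.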

Additional observations from a re-analysis of the deposited data

How the results depend on the processing

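No gene passed with the settings used above, so over the alternatives the count could only stay at 0 or rise. By limma it was 7 with the higher floor (KIF26B and SRSF2 higher; ADCK2, CRABP2, HTATSF1, PKMYT1 and SNRPA lower), where HTATSF1 was at -0.40 with an adjusted p of 0.00788, 1 with the replicate block (TMEM191A) and 2 without both outermost arrays (IRX2 and TMEM191A). It lay between 0 and 3 with single arrays left out: 3 without GFP shRNA replicate 1 (C11orf71, INSM1 and TMEM191A), 1 without shRNA B replicate 3 (CCDC78) and 0 otherwise. Over all alternatives, between 1004 and 1886 genes had an unadjusted p under 0.05 by limma. Replicate numbers do not pair the arrays: deviations of arrays with the same number correlated at -0.140, 0.0276 and -0.0668, and the block changed no other call. Splicing indices that passed were 3 without a filter on dim probe sets (SNX18, EVX1 and WDR81, all with means under the table median), 1 with the spread from 11 arrays (PCNX3) and 0 otherwise, single arrays left out included (range 0 to 0), with between 8101 and 26949 at an unadjusted p under 0.05. The PCNX3 probe set had means of 7.66 with shRNA B and 8.17 with GFP shRNA, so it passed the filter only through the controls.

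HTATSF1 lay between -0.341 and -0.41 with single arrays left out. Directions turned, with no cause tested, without a filter for COMTD1 (-0.103), ADRA2C (-0.0324), EIF3H (0.0502), CCDC78 (-0.045) and INSM1 (-0.0197); with means of probe sets for VWF (0.00573) and IRX2 (0.301); with cyclic loess for IRX2 (0.00937); and with probe sets centred first, chosen after seeing the data, for VWF (0.00457), INSM1 (-0.091) and IRX2 (0.0151). With arrays left out they turned for IRX2 (from -0.602 to 0.281 with single arrays left out; 0.145 and 0.281 without shRNA B replicate 2 or 3, 0.128 and 0.135 without GFP shRNA replicate 2 or 3), MS4A1 (from -0.00448, without shRNA B replicate 1, to 0.0166; -0.00594 without both outermost arrays) and NEFL (from -0.25 to 0.112, the latter without GFP shRNA replicate 1; 0.109 without both). No splicing index of a named probe set turned or passed in 337 values, but the size of some depended on the processing. The PAOX index difference of -0.62 lay between -0.72 and -0.14 over the alternatives. It was -0.14 with the higher floor, -0.27 with probe sets centred first and -0.30 without a filter. That of INSM1, -0.73, lay between -0.77 and -0.20, the latter with probe sets centred first, and was -0.27 without a filter. That of KRTCAP2, -0.58, lay between -0.69 and -0.33, the latter with the higher floor. The number of arrays limits all calls, and signals near the table median are compressed.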

Other observations

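Among the probe sets with the smallest unadjusted p, chosen after their values were seen, several lay in genes not described above. An inner probe set of C1orf122 had splicing index values of -0.22, -0.34 and -0.22 with shRNA B and -0.86, -0.88 and -0.92 with GFP shRNA, a difference of 0.63 ± 0.046 (SE), while its gene value was lower by 0.22. IRS4, an insulin receptor substrate prominent in HEK293 cells, had an index difference that came with probe set values of 9.73, 9.66 and 9.99 against 10.84, 10.40 and 10.24. MX1, an interferon-induced GTPase, had a probe set at 8.52, 8.24 and 8.32 with shRNA B and 7.65, 7.65 and 7.69 with GFP shRNA, while its gene value differed by 0.03. With GFP shRNA this probe set lay below the table median, so it passed the filter only through its shRNA B values. A probe set of ZFAS1, a small nucleolar RNA host gene, was at 8.76, 8.76 and 8.84 against 8.41, 7.86 and 8.13. In each of these 4 the groups did not overlap, and none passed after adjustment by limma (smallest adjusted p 0.427).

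Several genes with a small unadjusted p lay near the table median, and were not named by the rule for that reason. KRT25, a keratin of the hair follicle, was at 8.18, 8.08 and 8.16 with shRNA B and 7.93, 7.95 and 7.97 with GFP shRNA. SEMA3B, a secreted semaphorin, was at 8.12, 8.16 and 8.13 against 7.95, 8.00 and 7.95, and TRIML2 at 8.04, 8.05 and 8.01 against 7.94, 7.92 and 7.92. ANKRD13D was lower, at 7.96, 7.97 and 7.90 against 8.09, 8.12 and 8.13. All 4 had an adjusted p of 0.173 by limma.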
